A study of Mus musculus with 12 samples.

Results

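The genes examined here encode the nuclear subunits of respiratory complex I, taken as every gene whose symbol starts with Ndufa, Ndufab, Ndufb, Ndufc, Ndufs or Ndufv followed by a digit. Of the 21493 genes in each count table, 38 matched. Complex I subunits made up 36 of these, 7 of them core subunits and 29 accessory subunits. The other 2 matches were Ndufa4, whose protein is now assigned to cytochrome c oxidase, and its paralogue Ndufa4l2. All 38 passed the filter on low counts that left 13158 genes for testing. The subunits encoded by the mitochondrial genome were not analysed here.

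The 12 libraries of poly-A RNA came from heart muscle cells (adult cardiomyocytes) isolated at 3 months of age, with 3 replicates in each of 4 groups. The mice carried both copies of the gene for desmin, the main intermediate filament protein of muscle (Des+/+), or lacked it (Des-/-), and each genotype was studied without exercise (non-swim) and after swimming (swim). Both genotypes were on the 129SV background and carried a GFP reporter under the αMHC promoter. Mice were used irrespective of sex and pooled for each library, so that p-values measure the spread between pools. Cardiomyocytes were obtained by enzymatic perfusion with trypsin and collagenase D and harvested immediately after isolation.

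Complex I is the entry point of the respiratory chain. Its matrix arm oxidises NADH at a flavin and passes the electrons along a chain of iron-sulfur clusters to ubiquinone, and its membrane arm pumps protons across the inner mitochondrial membrane. The nuclear core subunits hold the flavin, the iron-sulfur clusters and part of the ubiquinone site, whereas the accessory subunits surround them and are needed for assembly and stability. Cardiomyocytes are rich in mitochondria, and desmin filaments link mitochondria to the contractile apparatus.

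Reads in genes ranged from 4320819 to 12072443 per library. Replicate 3 of both Des-/- groups stood apart, with the highest summed level of fibroblast markers, 40590 CPM (a gene's count relative to the TMM-scaled total of its library) in the non-swim and 14140 CPM in the swim library, against 2364 to 9526 CPM in the other 10 libraries. Set against the cardiomyocyte label, summed cardiomyocyte markers exceeded summed fibroblast markers in 11 of the 12 libraries. In Des-/- non-swim replicate 3 they stood at 6691 CPM, below the fibroblast sum, with macrophage markers at 4374 CPM. Over all libraries summed endothelial markers ranged from 4555 to 8923 CPM and summed mural cell markers from 2488 to 5953 CPM. Some reads were assigned to no feature. The study counted reads by strand, so these can include reads on the opposite strand of a gene. As a share of the reads in genes plus these, they amounted to 34.1% to 39.5% in Des+/+ non-swim and 46.0% to 50.5% in Des+/+ swim libraries. The share was 34.2% to 52.4% in Des-/- non-swim and 57.3% to 64.6% in Des-/- swim libraries. The targeted gene, Des, had a log2 change of -5.31 without swimming and of -3.72 after swimming, both called.

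Summed over the 36 subunits, complex I transcripts stood at 9171, 12170 and 11730 CPM in the Des+/+ and at 4051, 4425 and 2589 CPM in the Des-/- libraries of mice that had not swum. In mice that had swum the sums were 9276, 6378 and 8403 CPM in Des+/+ and 6464, 6175 and 4554 CPM in Des-/- libraries. Every Des-/- non-swim library lay below every other library, while the groups that had swum lay closer together and overlapped. Complex I transcripts thus took 0.871% to 1.08% of the reads in genes in Des+/+ non-swim and 0.264% to 0.485% in Des-/- non-swim libraries.

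**Figure D1:**
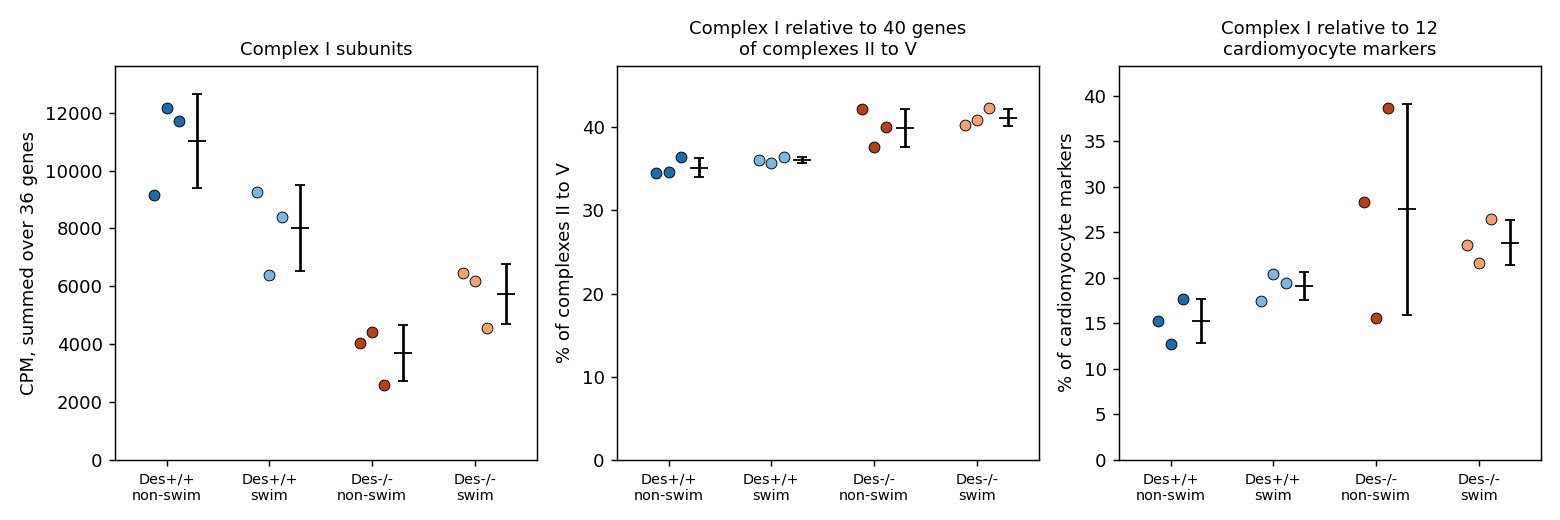
Level of the 36 complex I subunits in each of the 12 libraries, as summed CPM (left), as a percentage of the summed CPM of 40 genes of complexes II to V (middle) and as a percentage of the summed CPM of 12 cardiomyocyte markers (right); points are libraries, cross bars means and error bars SD (n = 3). The sums are lowest in the Des-/- non-swim libraries (2589 to 4425 CPM), whereas the percentage of complexes II to V is higher in both Des-/- groups (37.6% to 42.3%) than in both Des+/+ groups (34.5% to 36.4%).

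The first comparison asked which subunit transcripts differ between genotypes without exercise. Calls are adjusted p-values under 0.05 in edgeR's quasi-likelihood test, with the Benjamini-Hochberg adjustment made over the 13158 genes. All 36 subunits were called lower in Des-/- libraries, against 18.0% of all genes tested. The median log2 change was -1.44, which corresponds to 36.9% of the Des+/+ level, and single subunits ranged from -2.09 for Ndufs1 to -0.94 for Ndufa2, against a median of 0.04 over all genes. The libraries of the groups did not overlap for any of the 36, as for 47.9% of all genes. In bulk RNA, fewer cardiomyocytes in a pool and less of these transcripts per cardiomyocyte cannot be told apart.

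At the NADH-oxidising end of the matrix arm, 3 core subunits were measured, with a median log2 change of -1.87. Ndufs1 (ENSMUSG00000025968, GRCm38 chromosome 1, 63143596 to 63176833), which carries several of the iron-sulfur clusters, stood at 686, 882 and 702 CPM in Des+/+ non-swim and at 138, 292 and 102 CPM in Des-/- non-swim libraries. The highest Des-/- library, replicate 2, lay well below the lowest Des+/+ library. The log2 change was -2.09 (SE 0.36, adjusted p 0.00178), or 23.4% of the Des+/+ level, the lowest among the 36 subunits.

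Ndufv1 (chromosome 19, 4007384 to 4012806), the subunit that binds NADH and the flavin, was measured at 718, 1106 and 849 CPM in Des+/+ and 248, 328 and 153 CPM in Des-/- non-swim libraries, a log2 change of -1.87 (SE 0.30, adjusted p 0.00131). Ndufv2 (chromosome 17, 66078638 to 66101559), which holds another iron-sulfur cluster beside it, went from 444, 517 and 506 CPM in Des+/+ to 156, 196 and 114 CPM in Des-/- non-swim libraries, a change of -1.66 (SE 0.22, adjusted p 0.000903). For both genes replicate 3 was the lowest and replicate 2 the highest of the Des-/- libraries.

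Further along the matrix arm, Ndufs7 (chromosome 10, 80249121 to 80256794), which carries the last cluster of the chain, was at 274, 384 and 376 CPM in Des+/+ and 118, 110 and 68.1 CPM in Des-/- non-swim libraries. Its log2 change was -1.81 (SE 0.24, adjusted p 0.000903), or 28.6% of the Des+/+ level.

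Ndufs3 (chromosome 2, 90894634 to 90904827), a core subunit that lies between the NADH-oxidising end and the membrane, was at 187, 264 and 243 CPM in Des+/+ and 76.6, 88.4 and 45.3 CPM in Des-/- non-swim libraries, a log2 change of -1.72 (SE 0.26, adjusted p 0.00119). Ndufs8 (chromosome 19, 3908863 to 3912774), an iron-sulfur subunit, was at 170.2, 230 and 211 CPM against 84.8, 89.6 and 59.9 CPM, with -1.38 (SE 0.21, adjusted p 0.00123). Among the core subunits, Ndufs8 fell least and Ndufs1 most.

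**Figure D2:**
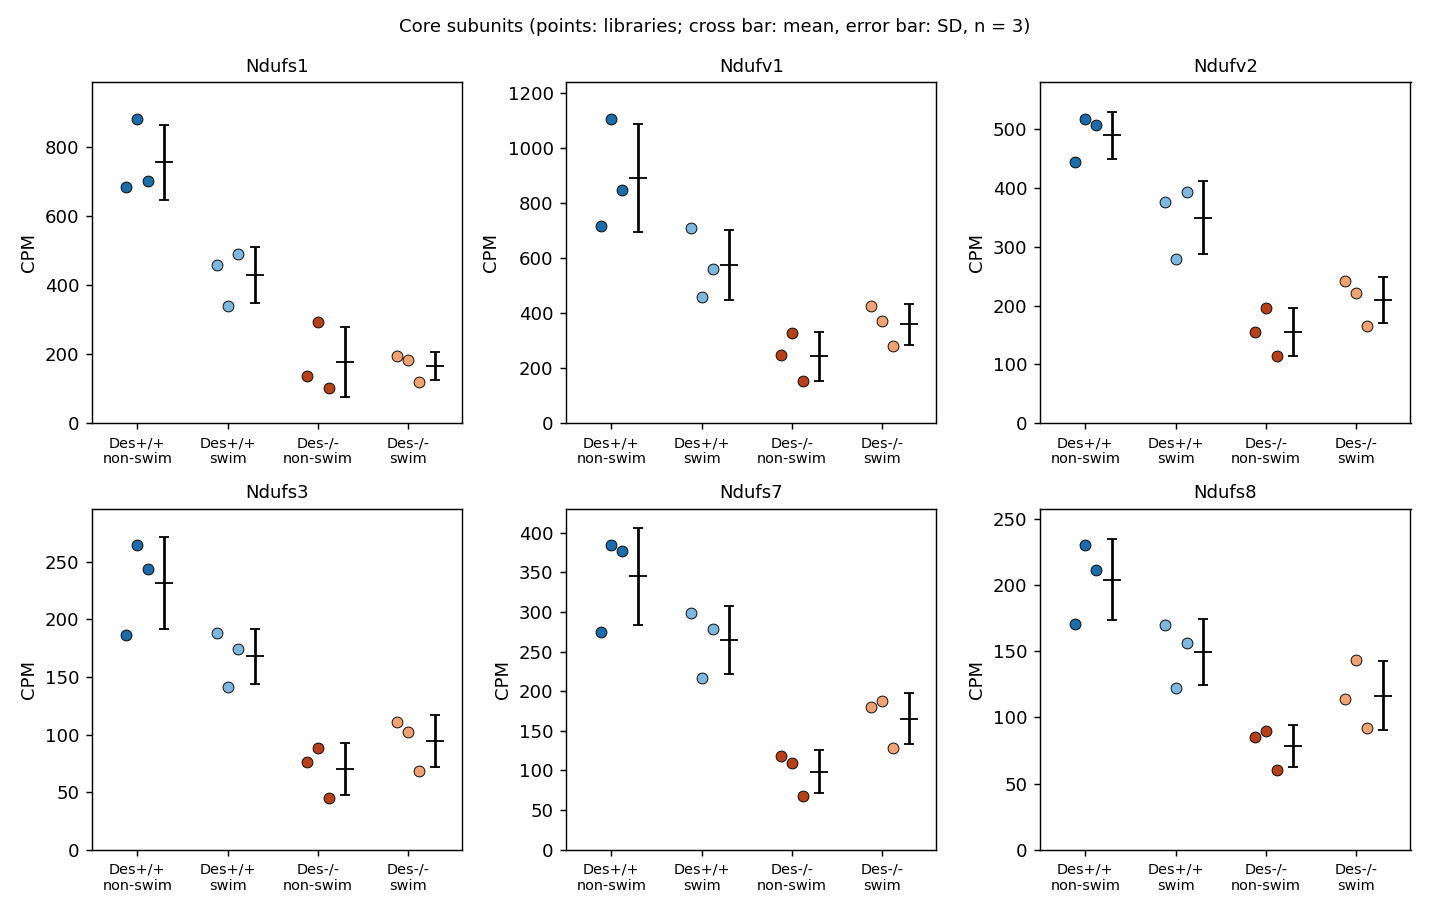
CPM of 6 nuclear core subunits in each library of the 4 groups; points are libraries, cross bars means and error bars SD (n = 3). For each of the 6 genes the Des-/- non-swim libraries lie below the Des+/+ non-swim libraries, and after swimming the means of the genotypes lie closer together. Ndufs1 stood at 102 to 292 CPM in Des-/- non-swim and at 119 to 196 CPM in Des-/- swim libraries.

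Of the accessory subunits of the matrix arm, 10 were measured, with a median log2 change of -1.40. The lowest was Ndufa9, which sits near the ubiquinone site, at 444, 628 and 491 CPM in Des+/+ and 126, 198 and 88.1 CPM in Des-/- non-swim libraries, a change of -1.92 (SE 0.30, adjusted p 0.00122). Ndufab1, the mitochondrial acyl carrier protein, which also serves fatty acid synthesis and iron-sulfur cluster assembly, was at 298, 362 and 392 CPM against 101, 123 and 64.2 CPM, with -1.87 (SE 0.26, adjusted p 0.000921). These 2 accessory genes lay within the range of the core subunits.

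The same arm held the members with the smallest changes. Ndufa2, a small accessory subunit with a thioredoxin-like fold, was at 132, 152 and 194 CPM in Des+/+ and 92.8, 84.2 and 72.0 CPM in Des-/- non-swim libraries, a log2 change of -0.94 (SE 0.21, adjusted p 0.00603), or 52.0% of the Des+/+ level. Ndufa7 was at 104, 155 and 169 CPM against 73.7, 72.0 and 54.2 CPM, with -1.10 (SE 0.22, adjusted p 0.00394). Even for these the lowest Des+/+ library lay above the highest Des-/- library.

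In the membrane arm, 9 accessory subunits of the proximal part, next to the matrix arm, had a median log2 change of -1.28 and ranged from -1.81 for Ndufa10 to -1.13 for Ndufa13. Ndufa13, also known as GRIM-19, was at 212, 281 and 326 CPM in Des+/+ and 150.4, 132 and 91.5 CPM in Des-/- non-swim libraries. The 10 accessory subunits of the distal part had a median of -1.52 and ranged from -1.66 for Ndufb9 to -1.12 for Ndufb7. Ndufb9, a member of the LYR protein family, was at 421, 621 and 604 CPM in Des+/+ and 198, 208 and 113 CPM in Des-/- non-swim libraries. Over all accessory subunits the median was -1.42.

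The matches outside complex I differed from each other. Ndufa4, of cytochrome c oxidase, was at 598, 726 and 765 CPM in Des+/+ and 296, 265 and 178 CPM in Des-/- non-swim libraries, with a log2 change of -1.499 (SE 0.24, adjusted p 0.00131), close to the median of the 36 subunits. Ndufa4l2, known as a gene induced by low oxygen, was at 53.7, 42.9 and 73.3 CPM against 85.8, 57.0 and 64.2 CPM, and its groups overlapped. Its change of 0.28 (SE 0.29, adjusted p 0.484) was not called.

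Calls of the 36 subunits held in each of the 12 fits that left out 1 library, with medians from -1.58 to -1.27, and the median was -1.20 without replicate 3 of both Des-/- groups. DESeq2 also called 36, against 19.4% of the 13072 genes that it gave an adjusted p. Without replicate 3 of both Des-/- groups edgeR called 36, against 14.4% of all genes.

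**Figure D3:**
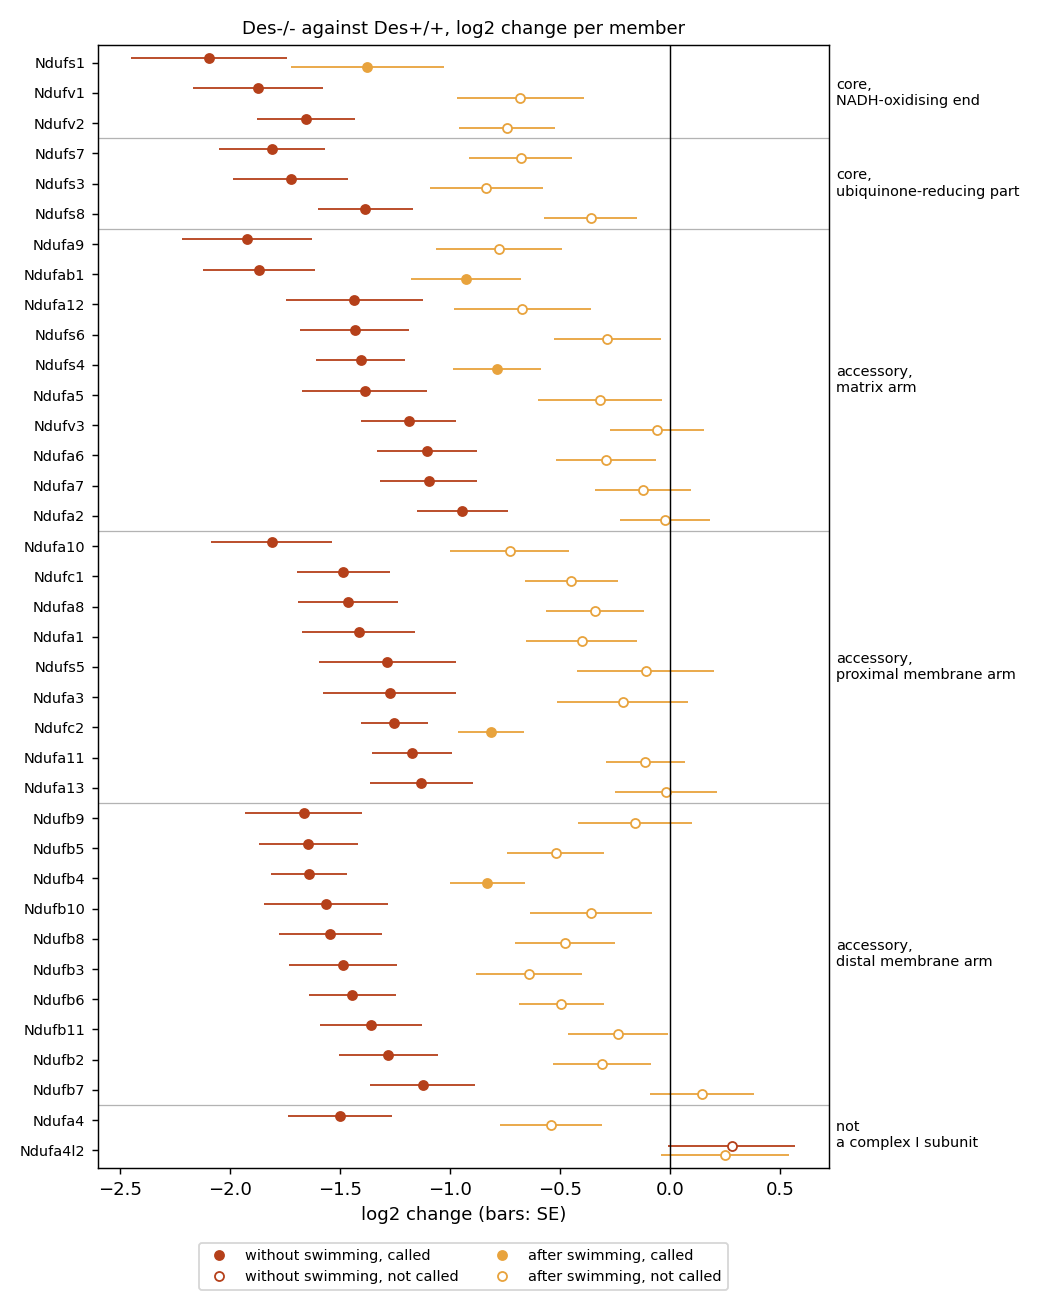
Log2 change between Des-/- and Des+/+ libraries for 37 of the 38 genes, ordered by place in the complex, without swimming and after swimming; points are edgeR estimates, bars SE, and filled points genes called at an adjusted p under 0.05. Without swimming all subunits shown lie between -2.09 and -0.94 and are called, whereas after swimming they lie between -1.38 and 0.15 and 5 are called.

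Since all the subunits fell together, their proportions were compared by scaling each library to its summed complex I counts. On this scale 5 accessory subunits were called higher in Des-/- non-swim libraries, namely Ndufa2 with a log2 change of 0.68, Ndufa7 with 0.53, Ndufa6 with 0.50, Ndufb7 with 0.48 and Ndufa13 with 0.47, and 0 subunits were called lower, where 1.54% of all genes were. The 7 core subunits were not called on this scale. Ndufs1 had the lowest relative change, -0.57 (SE 0.26, adjusted p 0.0545). On the same scale 86.3% of all genes were called higher, with a median of 1.67, as the subunits that set this scale had fallen. After swimming edgeR called 0 of the 36 subunits on this scale, with a median of 0.078, where 7.01% of all genes were called higher.

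Across the 36 subunits the change without swimming became lower with the mean level (Pearson's r = -0.54, Spearman's rho = -0.54 against mean log2 CPM) and with the length of the exons (r = -0.44, rho = -0.38), and was weakly related to the GC content of the transcripts (r = 0.14, rho = 0.11). Over all genes the same relations were -0.27, 0.00 and 0.05 as Pearson's r. These are descriptions over genes that share 12 libraries, and genes are not independent replicates.

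Per kilobase of exon, the mean levels of the subunits in Des+/+ non-swim libraries spanned 23.3 CPM per kb for Ndufb2 to 532 CPM per kb for Ndufb9. Ndufa1 with 384 and Ndufa8 with 381 CPM per kb were also high, and next above Ndufb2 were Ndufa12 with 43.4 and Ndufb7 with 47.4 CPM per kb. In Des-/- non-swim libraries the highest were Ndufb9 with 168, Ndufa2 with 145 and Ndufa1 with 144 CPM per kb. Lengths were those of all annotated exons of a gene together, so that genes with long rarely used exons are placed too low, and neighbours such as Ndufa1 and Ndufa8 differ by less than their spread over replicates.

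Promoter sequences, 250 bases before and 50 after the transcript start (RefSeq, GRCm38.p6), were found for 32 of the 36 subunits, with 34 promoters, and are described here because the subunits changed together. Both strands were searched for binding motifs of 4 factors known for control of respiratory chain genes, the NRF1 motif, CCGGAAGT for ETS factors such as GABPA, AANATGGCG for YY1 and TCAAGGTCA for the estrogen-related receptors. The NRF1 motif was present in 8 of the 34 promoters (23.5%), against 4.6% of 32851 promoters of the same length. These 8 promoters belonged to 7 of the 32 genes. The YY1 motif was in 7 promoters (20.6%), against 2.38%. The ETS motif was in 1 (2.94%, against 3.89%) and the motif of the estrogen-related receptors in 0 (against 0.423%). The 32851 promoters were not matched to those of the subunits in GC content. Whether the motifs relate to the changes was not tested. A match of letters is a description of the sequence and not a bound site.

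Of the core subunits, Ndufs3 and Ndufs7 held 1 match each. Ndufb4, shown as well because it held 3 matches, the highest number among the subunits, was chosen after its values were seen. The sequences run 5′ to 3′ in the direction of the gene, with the matches in capitals, the ETS motif on the opposite strand for Ndufs3, the YY1 motif for Ndufs7 and the NRF1 motif for Ndufb4. That of Ndufs3 runs from 250 bases before to 8 bases after the transcript start, that of Ndufs7 covers bases 4 to 33 after it, and that of Ndufb4 the 250 bases before it.
Ndufs3 (chr2:90904714-90904971, minus strand): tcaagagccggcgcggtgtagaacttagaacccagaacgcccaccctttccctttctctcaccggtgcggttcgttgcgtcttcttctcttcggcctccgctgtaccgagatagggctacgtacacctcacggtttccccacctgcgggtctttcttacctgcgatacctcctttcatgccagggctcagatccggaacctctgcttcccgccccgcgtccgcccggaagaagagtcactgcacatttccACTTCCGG
Ndufs7 (chr10:80249452-80249481, plus strand): ggttgtctgaaggccgaggccAAGATGGCG
Ndufb4 (chr16:37654369-37654618, minus strand): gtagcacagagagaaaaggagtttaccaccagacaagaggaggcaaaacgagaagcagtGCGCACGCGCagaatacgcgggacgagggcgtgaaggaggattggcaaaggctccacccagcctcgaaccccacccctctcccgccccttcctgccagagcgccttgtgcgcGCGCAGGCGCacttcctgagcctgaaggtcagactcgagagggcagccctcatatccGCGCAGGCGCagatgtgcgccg

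After swimming the genotypes were compared again, in libraries separate from those above. Here 5 of the 36 subunits were called lower in Des-/- libraries, against 5.57% of all genes. Estimates were below 0 for 35 subunits, against 48.4% of all genes, with a median of -0.42, or 74.5% of the Des+/+ level, and 14 had an unadjusted p under 0.05, against 15.8% of all genes in the lower direction. The libraries of the groups did not overlap for 13 of the 36 subunits, against 35.9% of all genes.

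The 5 called subunits lay in several places of the complex. Ndufs1 was at 459, 339 and 491 CPM in Des+/+ swim and 196, 183 and 118 CPM in Des-/- swim libraries, a log2 change of -1.38 (SE 0.35, adjusted p 0.0319), or 38.5% of the Des+/+ level. Ndufab1 was at 296, 205 and 301 CPM against 165, 148 and 109 CPM, with -0.93 (SE 0.25, adjusted p 0.0391). Both were also among the subunits with the lowest changes without swimming.

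The remaining 3, Ndufb4, Ndufc2 and Ndufs4, are named because they were called, a choice made after their values were seen. Ndufb4, of the distal membrane arm, was at 111, 77.6 and 95.3 CPM in Des+/+ swim and 58.7, 56.2 and 45.0 CPM in Des-/- swim libraries, a change of -0.83 (SE 0.17, adjusted p 0.0175). Ndufc2, of the proximal membrane arm, was at 129, 109.8 and 131 CPM against 78.3, 68.7 and 63.1 CPM, with -0.81 (SE 0.15, adjusted p 0.013). Ndufs4, an accessory subunit of the matrix arm whose loss is a known cause of Leigh syndrome, was at 160.3, 117 and 171 CPM against 93.6, 92.7 and 73.6 CPM, with -0.79 (SE 0.20, adjusted p 0.0322). In each of the 3 the libraries of the genotypes were well separated, and the SE was below the median SE of the 36 subunits, 0.23.

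These calls depended on single libraries. Out of 12 fits that left out 1 library, Ndufc2 was called in 11, Ndufb4 in 10, Ndufs1 and Ndufs4 in 7 and Ndufab1 in 5. The number of subunits called was 1 without Des+/+ swim replicate 1, 0 without Des+/+ swim replicate 3, 2 without any one of the 3 Des-/- swim replicates, and 11 without Des-/- non-swim replicate 3. Without replicate 3 of both Des-/- groups it was 6, against 6.23% of all genes, with a median of -0.29.

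Besides Ndufs1, no core subunit was called. Ndufs3 was at 188, 141 and 174 CPM in Des+/+ swim and 111, 103 and 68.8 CPM in Des-/- swim libraries, with a log2 change of -0.83 (SE 0.26, adjusted p 0.058), and Ndufv2 at 376, 279 and 393 CPM against 242, 221 and 165 CPM, with -0.74 (SE 0.22, adjusted p 0.0518). Their libraries did not overlap, nor did those of Ndufv1 and Ndufs7. Ndufv1 was at 709.5, 458 and 559 CPM against 425, 373 and 279.9 CPM, a change of -0.68 (SE 0.29, adjusted p 0.137). Ndufs7 was at 299, 217 and 278 CPM against 179.6, 188 and 128 CPM, a change of -0.68 (SE 0.24, adjusted p 0.0825).

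For Ndufs8 the genotypes overlapped after swimming. It was at 170.1, 122 and 156 CPM in Des+/+ and 114, 144 and 91.8 CPM in Des-/- swim libraries, with a change of -0.36 (SE 0.21, adjusted p 0.268).

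At the other end of the range, some accessory subunits stood at nearly the same mean level in both genotypes after swimming. Ndufb7, a distal subunit that faces the intermembrane space, was at 224, 139 and 179.7 CPM in Des+/+ and 215, 229 and 157 CPM in Des-/- swim libraries, with a change of 0.15 (SE 0.24, adjusted p 0.707). Ndufa13 was at 246, 153 and 190.3 CPM against 205, 209 and 169 CPM, with -0.02 (SE 0.23, adjusted p 0.964). Both estimates changed sign under some alternative settings. Ndufa4 was not called after swimming, with -0.54 (SE 0.23, adjusted p 0.142), nor was Ndufa4l2, with 0.25 (SE 0.29, adjusted p 0.584).

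Across the 36 subunits, those with the lowest change without swimming tended to have the lowest change after it (r = 0.79, rho = 0.75, against 0.70 and 0.65 over all genes). The pairs of groups share no library, but the points are genes of the same libraries, so this is given as a description.

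Next, swim and non-swim libraries of the same genotype were compared. In Des+/+ libraries edgeR called 0 of the 36 subunits, against 0 of all genes in the lower and 0.0912% in the higher direction. DESeq2 also called 0 of the subunits. Of the 10297 genes that it gave an adjusted p, it called 3.13% lower and 4.76% higher. Estimates were below 0 for 35 subunits, against 58.0% of all genes, with a median log2 change of -0.39. An unadjusted p under 0.05 was found for 4 subunits, against 20.5% of all genes. The groups did not overlap for 9 of the 36, against 31.3% of all genes. Ndufs1 had the lowest estimate, from 686, 882 and 702 CPM in non-swim to 459, 339 and 491 CPM in swim libraries, with -0.82 (SE 0.34, adjusted p 0.215) and no overlap between the groups. Ndufb6, of the distal membrane arm, was at 119, 148 and 148 CPM against 122, 75.5 and 109 CPM, with -0.43 (SE 0.19, adjusted p 0.238), and its groups overlapped. Replicate 2 was the lowest Des+/+ swim library for 36 of the 36 subunits.

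In Des-/- libraries the estimates pointed the other way. They were above 0 for 35 of the 36 subunits, where 51.4% of all genes had estimates below 0, with a median log2 change of 0.64, or 156% of the non-swim level, and 23 had an unadjusted p under 0.05, against 7.77% of all genes in the higher direction. At the adjusted threshold edgeR called 0 subunits, against 0.0228% of all genes. DESeq2 called 7 higher, Ndufa6, Ndufa11, Ndufb7, Ndufb9, Ndufc1, Ndufs6 and Ndufv3, against 1.55% of the 12816 genes that it gave an adjusted p. The block on replicate number left 0 called.

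Ndufb9 was at 198, 208 and 113 CPM in Des-/- non-swim and 402, 379 and 304 CPM in Des-/- swim libraries, with a log2 change of 1.06 (SE 0.26, adjusted p 0.186). Ndufb7 was at 121, 99.0 and 75.0 CPM against 215, 229 and 157 CPM, with 1.02 (SE 0.24, adjusted p 0.186). For both genes each swim library lay above each non-swim library, as it did for 19 of the 36 subunits, against 19.4% of all genes. The single estimate below 0 was that of Ndufs1, at 138, 292 and 102 CPM against 196, 183 and 118 CPM, with -0.10 (SE 0.34, adjusted p 0.907). The next lowest were Ndufc2 with 0.15 and Ndufs4 with 0.28, both among the 5 subunits called lower after swimming. Both comparisons use the same Des-/- swim libraries, so this overlap is given as a description only.

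**Figure D4:**
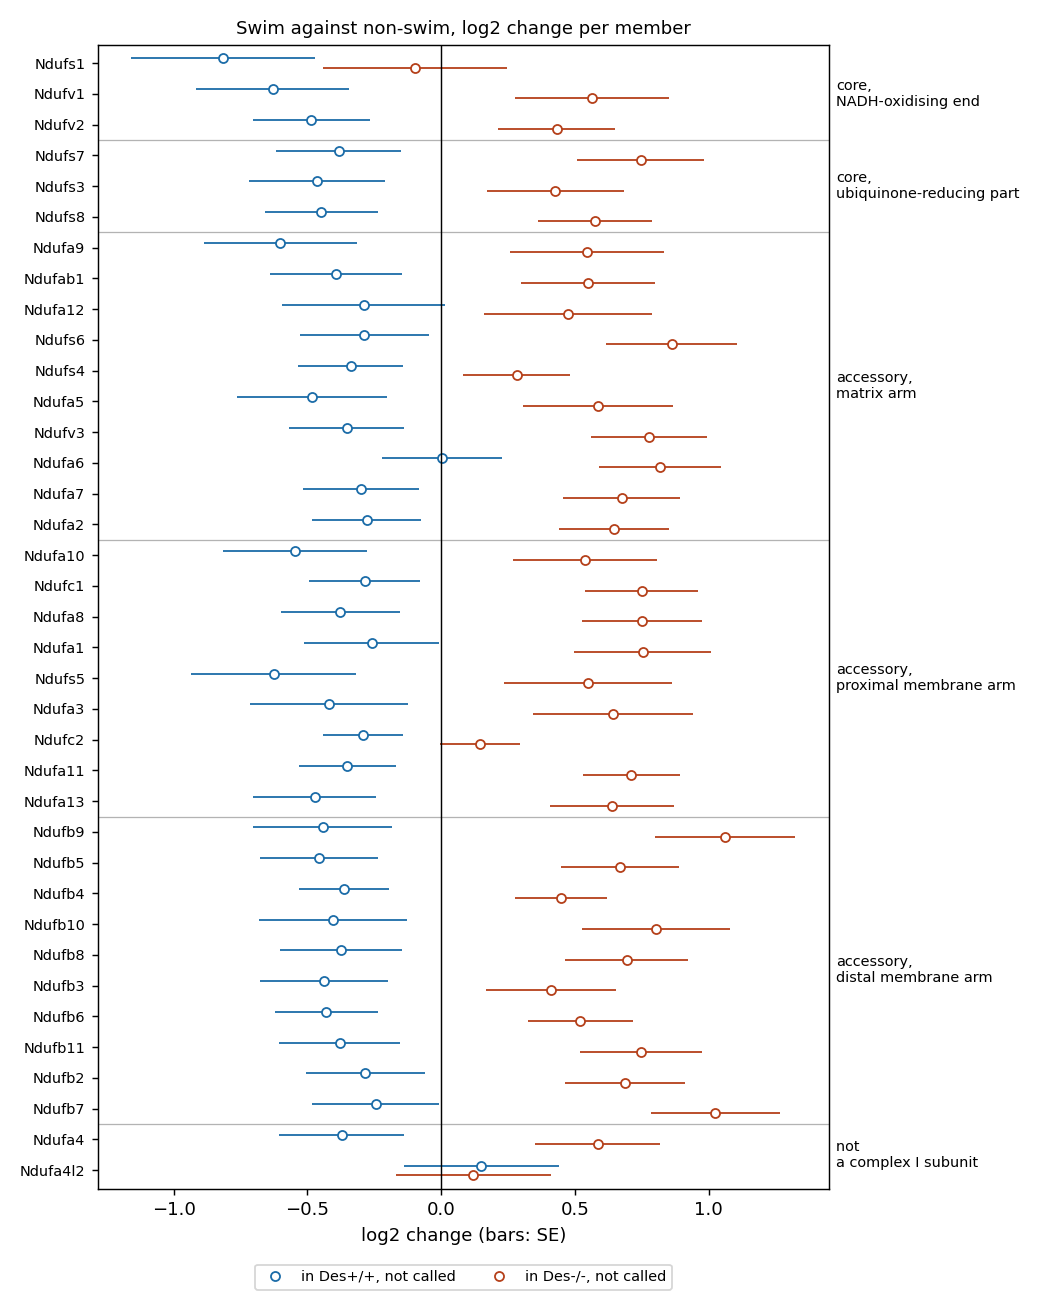
Log2 change between swim and non-swim libraries for 37 of the 38 genes in Des+/+ and in Des-/- libraries, ordered by place in the complex; points are edgeR estimates and bars SE, and none of the 38 was called. In Des+/+ libraries all subunits shown but Ndufa6, at 0.0026, lie below 0, and in Des-/- libraries all but Ndufs1 lie above 0.

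The difference between both swimming effects was tested as an interaction. Its estimate was above 0 for 36 of the 36 subunits, where 47.4% of all genes had estimates below 0, with a median of 1.06, and 33 had an unadjusted p under 0.05, against 10.1% of all genes in that direction. edgeR called 0 of them, as it called 0 of all genes, with 0.199 as the smallest adjusted p of a subunit. DESeq2 called 15, against 2.47% of the 8537 genes that it gave an adjusted p. Ndufb9 had an interaction of 1.505 (SE 0.37, adjusted p 0.199), and Ndufa11, of the proximal membrane arm, one of 1.06 (SE 0.26, adjusted p 0.199). Ndufa11 was at 139, 189 and 188 CPM in Des+/+ non-swim, 159, 109 and 136 CPM in Des+/+ swim, 86.3, 81.1 and 61.5 CPM in Des-/- non-swim and 130.4, 126 and 118 CPM in Des-/- swim libraries. The lowest interactions were those of Ndufc2 with 0.44, Ndufs4 with 0.62 and Ndufs1 with 0.72. The interaction uses the same libraries as the comparisons above and is not independent of them.

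Markers of some cell types in the pools also differed between the genotypes. Without swimming, 12 of 12 cardiomyocyte markers were called lower in Des-/- libraries (median log2 change -2.02), against 18.0% of all genes. Called higher were 10 of 10 fibroblast markers (2.11) and 9 of 10 macrophage markers (2.94), against 14.0% of all genes. Replicate 3 stood far above the other Des-/- non-swim libraries in both. Summed macrophage markers were 683, 414 and 4374 CPM in replicates 1, 2 and 3, and summed fibroblast markers 9526, 8570 and 40590 CPM. Of 8 endothelial markers 0 were called, against 32.0% of all genes in either direction. These markers are transcripts too, so from them cell number and level per cell cannot be told apart. No defining marker of these lists was at 0 in any library. Summed cardiomyocyte markers ranged from 60030 to 95270 CPM in Des+/+ non-swim, 31280 to 53220 CPM in Des+/+ swim, 6691 to 28460 CPM in Des-/- non-swim and 17210 to 28600 CPM in Des-/- swim libraries, an order of the groups like that of complex I. Summed fibroblast markers ranged from 3337 to 3920, 2364 to 3454, 8570 to 40590 and 4130 to 14140 CPM in the same groups, and summed macrophage markers from 219 to 340.0, 251 to 317, 414 to 4374 and 232 to 1375 CPM. Of 8 mural cell markers, 1 was called lower without swimming, against 18.0% of all genes. After swimming 1 of 12 cardiomyocyte markers was called lower in Des-/- libraries (median -0.64), against 5.57% of all genes. Called higher after swimming were 2 of 10 fibroblast markers (1.25) and 0 of 10 macrophage markers (1.17), against 5.01% of all genes.

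Erythrocyte markers were called higher in Des-/- libraries without swimming for 5 of 5 genes (median log2 change 3.07), against 14.0% of all genes. After swimming 0 of 5 were called higher (-0.44), against 5.01% of all genes. With swimming 0 of 5 were called in either genotype, but the median was 2.54 in Des+/+, where 5 of 5 had an unadjusted p under 0.05 and no overlap, and -1.07 in Des-/- libraries. Over all genes in Des+/+, 20.5% had an unadjusted p under 0.05 and 31.3% had no overlap. Their sums ranged from 179 to 546 CPM in Des+/+ non-swim, 1390 to 2175 CPM in Des+/+ swim, 1470 to 4579 CPM in Des-/- non-swim and 491 to 2919 CPM in Des-/- swim libraries. In both swimming comparisons the medians of these markers and of complex I had opposite signs, and their part in the results was not tested.

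**Figure D5:**
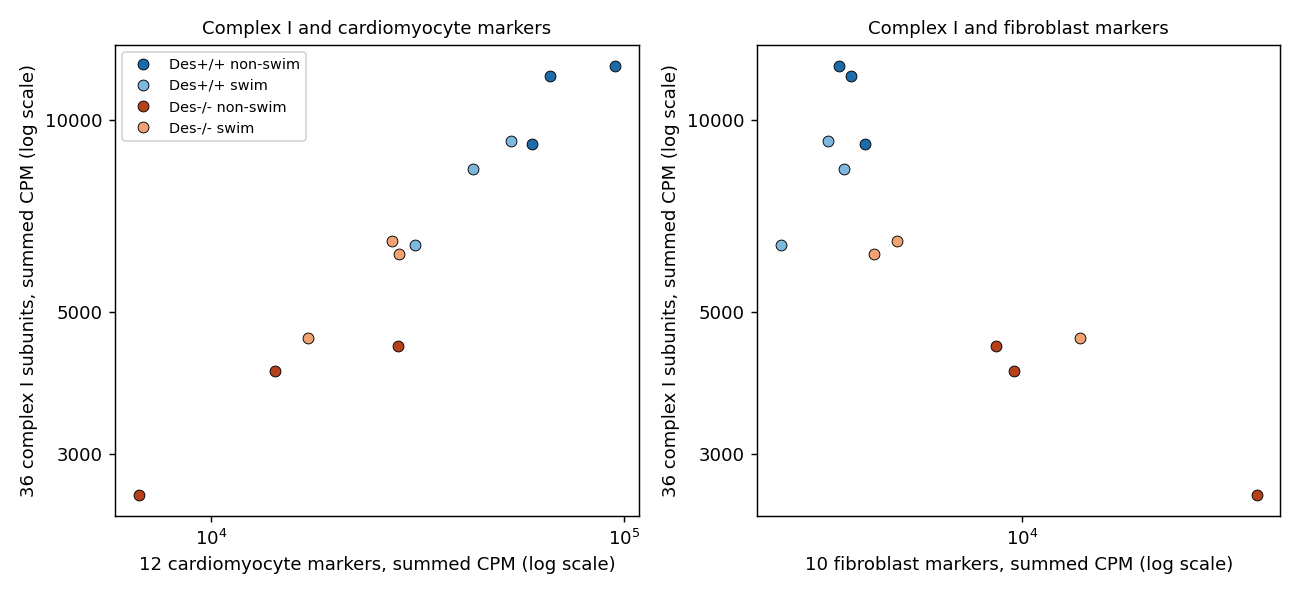
Summed CPM of the 36 complex I subunits against the summed CPM of 12 cardiomyocyte markers (left) and of 10 fibroblast markers (right) in the 12 libraries; both axes are logarithmic, and points are libraries coloured by group. The library with the lowest complex I sum, 2589 CPM (Des-/- non-swim replicate 3), also has the lowest cardiomyocyte sum, 6691 CPM, and the highest fibroblast sum, 40590 CPM.

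Complex I was also set against the cardiomyocyte markers of the same library, a scale on which the median gene was higher in Des-/- libraries. The complex I sum was 15.3%, 12.8% and 17.7% of the summed cardiomyocyte markers in Des+/+ non-swim and 28.4%, 15.6% and 38.7% in Des-/- non-swim libraries, where replicate 2 lay within the Des+/+ range. In swim libraries it was 17.4%, 20.4% and 19.5% in Des+/+ and 23.6%, 21.6% and 26.5% in Des-/- libraries, with no overlap. With each library scaled to its cardiomyocyte markers, 17 of the 36 subunits were called higher and 0 lower in Des-/- non-swim libraries, with a median log2 change of 1.02, where 92.2% of all genes were called higher and 0.144% lower, with a median of 2.61. The median of the subunits thus lay above 0 on that scale and below the median of all genes. After swimming 0 were called on that scale, against 0.0228% of all genes called higher, with a median of 0.40.

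A covariate for cell mix, the fibroblast score minus the cardiomyocyte score of each library, left 0 of the 36 subunits called without swimming, against 0.0684% of all genes in the lower direction, with a median of -0.54. After swimming it left 1, Ndufc2, against 3.21% of all genes, with a median of -0.0081. The values of this covariate did not overlap between the genotypes, so that genotype and cell mix cannot be told apart by this fit.

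Other parts of the respiratory chain were measured beside complex I. Of 40 nuclear genes of complexes II to V, 38 were called lower without swimming (median log2 change -1.64) and 7 after swimming (median -0.53). Over all genes 18.0% were called lower without and 5.57% after swimming. The summed complex I level was 34.5%, 34.6% and 36.4% of the summed level of these genes in Des+/+ non-swim and 42.2%, 37.6% and 40.1% in Des-/- non-swim libraries. Libraries of mice that had swum gave 36.1%, 35.7% and 36.4% in Des+/+ and 40.3%, 40.9% and 42.3% in Des-/- libraries. This ratio of the sums was higher in each Des-/- library than in any Des+/+ library, which is given as a description with no test.

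Among 18 assembly factors of complex I, 15 were called lower without swimming, against 18.0% of all genes, with a median of -1.08. After swimming 0 were called lower, against 5.57% of all genes, with a median of -0.24. Timmdc1, which acts in assembly of the membrane arm, changed by -1.35 (SE 0.17, adjusted p 0.000836) without swimming and was not called after it, with -0.52 (SE 0.17, adjusted p 0.0695). Ndufaf1, a factor of the same intermediate, changed by -1.49 (SE 0.21, adjusted p 0.000969), and Ndufaf6 was not called after swimming, with -0.71 (SE 0.22, adjusted p 0.0581).

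Of 11 regulators of mitochondrial gene expression, 6 were called lower without swimming, against 18.0% of all genes, and 2 after it, against 5.57%. Esrra, the estrogen-related receptor alpha, changed by -1.56 (SE 0.18, adjusted p 0.000787) without swimming. Tfam, which packages mitochondrial DNA and acts in its transcription, changed by -0.72 (SE 0.15, adjusted p 0.00497) without swimming. After swimming Yy1 changed by -0.43 (SE 0.11, adjusted p 0.0292) and Tfam by -0.59 (SE 0.15, adjusted p 0.0334). Further values are given because the motifs of these factors were searched in the promoters, a choice made after the values were seen. Nrf1 was not called in either comparison, with 0.23 (SE 0.17, adjusted p 0.318) and -0.16 (SE 0.17, adjusted p 0.558). Yy1 was not called without swimming, with -0.11 (SE 0.11, adjusted p 0.441). Gabpa was called lower without swimming, with -0.40 (SE 0.14, adjusted p 0.0472), but not after it, with -0.42 (SE 0.14, adjusted p 0.0736). Esrra was not called after swimming, with -0.52 (SE 0.18, adjusted p 0.0809).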

How the data were processed

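Each deposited table lists, for 1 library, unnormalised counts per gene that the authors made from single-end reads of poly-A RNA. The submitters' processing notes name HISAT2 2.2.1, SAMtools 1.13, HTSeq and DESeq2 1.40.2, with the build GRCm38. Groups were taken from the sample labels. The labels and the study's methods name different library kits, and only the latter keeps strand.

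The analysis used edgeR 4.0.16 under R 4.3.3: filterByExpr, TMM scaling, then 1 quasi-likelihood fit of 4 group means to the 12 libraries, with 8 residual degrees of freedom. The SE is the log2 change divided by the square root of F. Members and gene lists were chosen with earlier results of these data known. Values per library are given for core subunits, the 3 lowest and 3 highest members in each genotype comparison, the 2 smallest p-values for swimming and for the interaction, and Ndufa4 and Ndufa4l2; assembly factors and regulators are named by their 2 smallest p-values. Positions and exon lengths are from GENCODE M21. Depth gave a floor (3 counts) of 0.262 to 0.656 CPM, counting error only. Alternatives were other scalings, DESeq2 1.42.0, no filter, the 6 libraries compared, a covariate, the study's thresholds and leaving out libraries. By a correlation of deviations over 0.1 in every pair, replicate numbers paired libraries only for swimming in Des-/- (0.365, 0.316 and 0.602), but replicates 1 and 2 also correlated across numbers (0.299 and 0.292), and replicate 3 stood apart from both (-0.47 to -0.414). The test procedure was also run on simulated counts, for the genotype without swimming. It called 38 of 100 genes with a simulated log2 change of 1 in size, and 91 of 100 with a change of 2. Of 12849 unchanged genes it called 7. The changed genes were drawn from those with a mean count of at least 20. Each gene was simulated on its own, with no shared shift in cell mix, so these rates need not hold for the subunits. A member that the fits, sums and counts include is not reported singly here. rRNA and mitochondrial transcripts were not analysed here.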

Additional observations from a re-analysis of the deposited data

How the results depend on the processing

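The count of 36 subunits called lower without swimming was the same with DESeq2, DESeq2 size factors, upper-quartile scaling, no filter on low counts, only the 6 libraries compared, the replicate block, the study's thresholds (unadjusted p of at most 0.05, absolute log2 change of at least 0.6, mean count of at least 20) and every fit leaving out 1 library. With the replicate block 4 subunits were called after swimming, against 5.27% of all genes (Ndufab1 lost its call, at -0.95), and the block changed no other count of subunits. For the genotype after swimming 8 were called with DESeq2 (9.29% of all genes in that direction), 12 with the study's thresholds (8.21%), 3 with upper-quartile scaling (3.47%) and 0 to 11 leaving out 1 library. The study's thresholds called 2 lower for swimming in Des+/+ (6.05% of all genes, near the subunits' share), 19 higher for swimming in Des-/- (3.47%) and 33 higher for the interaction (8.36%), where DESeq2 called 7 (1.55%) and 15 (2.47%) higher. The cause of these differences was not tested. Shares given for DESeq2 are of the genes that it gave an adjusted p, 8537 to 13072 by comparison.

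With the cell-mix covariate 0 were called without and 1 after swimming, and the medians were -0.54, -0.0081, 0.26 for swimming in Des-/- and 0.52 for the interaction. Scaled to the complex I total, 5 were called without and 0 after swimming, and the medians of the 5 contrasts were 0.15, 0.078, 0.067, 0.0016 and -0.042. Scaled to the cardiomyocyte marker total, 17 were called higher without and 0 after swimming, and the medians were 1.02, 0.40, 0.38, -0.23 and -0.59. By construction, these scales remove changes shared by the genes that set them.

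Scaled to cardiomyocyte markers, the estimates of all 36 subunits turned above 0 without swimming and below 0 for the interaction. Among the genes followed singly, signs reversed in 32 cases. Scaled to cardiomyocyte markers these were, without swimming, Ndufs1 0.17, Ndufa9 0.44, Ndufv1 0.51, Ndufs7 0.64, Ndufs3 0.67, Ndufv2 0.77, Ndufs8 1.10, Ndufa7 1.42 and Ndufa2 1.58, after swimming, Ndufv2 0.060, Ndufs7 0.12, Ndufv1 0.13, Ndufs8 0.44 and Ndufa13 0.82, for the interaction Ndufb9 -0.080 and Ndufa11 -0.61, and for swimming in Des+/+ Ndufb6 0.34. Scaled to the complex I total they were, without swimming, Ndufs8 0.21, Ndufa7 0.53 and Ndufa2 0.68, after swimming, Ndufs8 0.12 and Ndufa13 0.49, for the interaction Ndufa11 -0.045, and for swimming in Des+/+ Ndufb6 0.017. After swimming the cell-mix covariate gave Ndufs8 0.030 and Ndufa13 0.33, and Ndufa13 was 0.077 with upper-quartile scaling and 0.084 without replicate 3 of both Des-/- groups, a setting chosen after the data were seen. Leaving out 1 library gave Ndufa13 from -0.17 to 0.17, above 0 without Des+/+ swim replicate 1 (0.17) and Des-/- swim replicate 3 (0.072), and gave -0.015 (Des+/+ swim replicate 2) for Ndufb7 and -0.063 (Des-/- swim replicate 2) for Ndufa4l2, all after swimming.

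Depth did not limit detection of the subunits, of which the lowest count in any library was 137 reads (Ndufa12).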
